A study of Homo sapiens with 8 samples.

Results

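Small nucleolar RNA (snoRNA) host genes are long non-coding RNA genes whose introns carry the snoRNAs that guide chemical modification and processing of ribosomal RNA. The 10 genes described here, GAS5, SNHG1, SNHG3, SNHG5, SNHG6, SNHG7, SNHG8, SNHG15, SNHG16 and ZFAS1, were chosen by gene identity, as a fixed list of Ensembl IDs, out of 60666 gene rows. All 10 passed the filter on low counts, as did 17351 rows in all. Their reads were counted in RNA recovered with biotinylated microRNA duplexes from 786-0 cells, an established human line from a clear cell renal carcinoma. All groups were the same line, and they differed in the duplex, which had been transfected for 48 h. The line carries no other change that the labels name. The groups were miR-2355 (2 libraries), miR-1271 (3 libraries) and a control microRNA (3 libraries). The design text speaks of triplicates, while the samples used here held 2 miR-2355 libraries. The control microRNA's sequence is not given in the sources used here. The stated purpose was a search for RNA targets of miR-2355-5p and of miR-1271-5p for this kind of tumour.

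As background, a snoRNA host transcript is spliced, its snoRNAs are trimmed out of the introns and packed with proteins, and the exons are left as a spliced RNA. Box C/D snoRNAs guide 2′-O-methylation and box H/ACA snoRNAs guide pseudouridylation. Many spliced host RNAs start with a stretch of pyrimidines, as the mRNAs of ribosomal proteins do (the 5′ terminal oligopyrimidine, or TOP, class). They hold only short open reading frames, and several, GAS5 above all, are engaged by ribosomes and degraded by nonsense-mediated decay, so that their level rises when translation is slowed.

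The sequences of both microRNAs are shown because the seed, bases 2 to 8 from the 5′ end and in capitals here, is the part that pairs with a target. They are RefSeq's mature sequences on GRCh38.p14, from the minus strand at chr2:207110043-207110063 for miR-2355-5p and the plus strand at chr5:176367960-176367981 for miR-1271-5p.
miR-2355-5p: aUCCCCAGauacaauggacaa
miR-1271-5p: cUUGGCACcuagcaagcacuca
The seeds differ from each other. No transcript sequence of the host genes was used here, so seed sites in them were not searched.

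The start of the host transcripts is where the TOP feature lies, so the 20 bases before and the 30 bases from the annotated start are shown for the 8 members whose promoter the RefSeq table used here holds. Capitals mark the unbroken run of C and T that begins at the first transcribed base, or that base alone where it is A or G.
SNHG5, minus strand, chr6:85678704-85678753: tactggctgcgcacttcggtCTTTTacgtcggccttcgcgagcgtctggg
ZFAS1, plus strand, chr20:49278622-49278671: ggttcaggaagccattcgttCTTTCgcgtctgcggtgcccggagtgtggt
SNHG7, minus strand, chr9:136728155-136728204: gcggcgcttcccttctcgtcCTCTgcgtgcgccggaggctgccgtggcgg
SNHG1, minus strand, chr11:62855856-62855905: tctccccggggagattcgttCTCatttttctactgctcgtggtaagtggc
SNHG8, plus strand, chr4:118278742-118278791: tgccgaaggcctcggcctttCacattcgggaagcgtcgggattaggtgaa
GAS5, minus strand, chr1:173869016-173869065: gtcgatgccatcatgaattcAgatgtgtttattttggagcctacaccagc
SNHG3, plus strand, chr1:28505923-28505972: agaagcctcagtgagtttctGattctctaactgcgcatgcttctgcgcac
SNHG16, plus strand, chr17:76557744-76557793: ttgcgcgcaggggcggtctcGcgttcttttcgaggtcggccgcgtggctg

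A start at C followed by a pyrimidine run of at least 4 bases in all was found in 3 of these 8, SNHG5 and ZFAS1 with 5 bases and SNHG7 with 4, against 5.45% of 35114 RefSeq promoters. The letters TATAA, looked for on the gene's strand within 40 to 21 bases before the start, were present in 4 of the 8 (SNHG5, SNHG7, SNHG8 and ZFAS1), against 3.77% of all promoters. On the other strand they were present in 1 of 8, ZFAS1, against 1.59%. The matches of ZFAS1 on both strands may overlap, and their positions are not given here. SNHG6 and SNHG15 are named only. An annotated start can lie at some distance from the one used in these cells, so these counts hold for the annotated starts alone. For ZFAS1 the start shown lies inside the gene's annotated span.

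On GRCh38.p14, RefSeq places GAS5 (ENSG00000234741) at chr1:173863901-173869045 with 11 snoRNA genes within its span, 10 of them box C/D by symbol, and SNHG1 (ENSG00000255717) at chr11:62851978-62855885 with 9, 8 of them box C/D. The other hosts of box C/D snoRNAs were SNHG5 (ENSG00000203875) at chr6:85677007-85678733 with 2 (SNORD50A and SNORD50B), SNHG6 (ENSG00000245910) at chr8:66921690-66925541 with 1 (SNORD87), SNHG16 (ENSG00000163597) at chr17:76557764-76565348 with 3 (SNORD1A, SNORD1B and SNORD1C) and ZFAS1 (ENSG00000177410) at chr20:49278178-49289260 with 3 (SNORD12, SNORD12B and SNORD12C). Hosts of box H/ACA snoRNAs alone were SNHG3 (ENSG00000242125) at chr1:28505943-28510892 with 2 (SNORA73A and SNORA73B), SNHG7 (ENSG00000233016) at chr9:136724594-136728184 with 2 (SNORA17A and SNORA17B), SNHG8 (ENSG00000269893) at chr4:118278762-118279823 with 1 (SNORA24) and SNHG15 (ENSG00000232956) at chr7:44983023-44986696 with 1 (SNORA9). The spans of GAS5, SNHG3, SNHG6 and SNHG7 overlap other annotated genes that are not snoRNAs (ZBTB37 and GAS5-AS1, RCC1, MCMDC2, and DIPK1B with a further locus). Reads of such neighbours could not be told apart from reads of the host, and whether counting used strand is not given.

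Total counts ran from 10358878 to 18637410 in the microRNA libraries and from 4122875 to 22864693 in the controls. The 10 genes together held 2947 to 6601 reads in the microRNA libraries and 1813 to 9785 in the controls, and the smallest single value was 57 reads, for SNHG15 in control replicate 2. Levels are TMM-scaled CPM, counts relative to the reads of the library, and they are compared between groups, not between genes, since exon lengths were not used. No RNA from before the pulldown was used, so a changed amount in the cells and a changed recovery cannot be told apart. In miR-1271 replicate 2, 10 of 10 host genes were higher than in both other miR-1271 libraries, and their summed level was 442.1 CPM against 304.88 and 309.72 CPM. In miR-2355 replicate 1, 8 of 10 were higher than in replicate 2. How many of all tested genes were highest in these libraries was not counted, so nothing particular to the host genes is read from this. The values against the control that moved most without miR-1271 replicate 2 are given with and without it.

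Relative to the control microRNA, host genes were called in both directions. With miR-2355, 1 member was higher, SNHG16, and 3 were lower, SNHG5, SNHG6 and ZFAS1 (edgeR quasi-likelihood test, adjusted p under 0.05 over all genes), where 12.3% of all genes tested were higher and 17.5% lower. With miR-1271, 3 were higher, GAS5, SNHG3 and SNHG16, and 3 lower, SNHG5, SNHG6 and ZFAS1, where 17.6% of all genes were higher and 22.5% lower. The median log2 fold change of the 10 was -0.10 for miR-2355, where that of all tested genes was -0.005, and -0.07 for miR-1271, where it was 0.006. Both comparisons share the same 3 control libraries. The summed level of the 10 averaged 334.5 ± 25.6 CPM with miR-2355 (SD, n = 2), 352.2 ± 77.9 CPM with miR-1271 (SD, n = 3) and 410.5 ± 7.27 CPM with the control (SD, n = 3). The sums of 352.56 and 316.39 CPM with miR-2355 and of 304.88 and 309.72 CPM in miR-1271 replicates 1 and 3 lay below the lowest control, at 402.17 CPM, and that of miR-1271 replicate 2 lay above every control. No test was made of the sum.

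**Figure D1:**
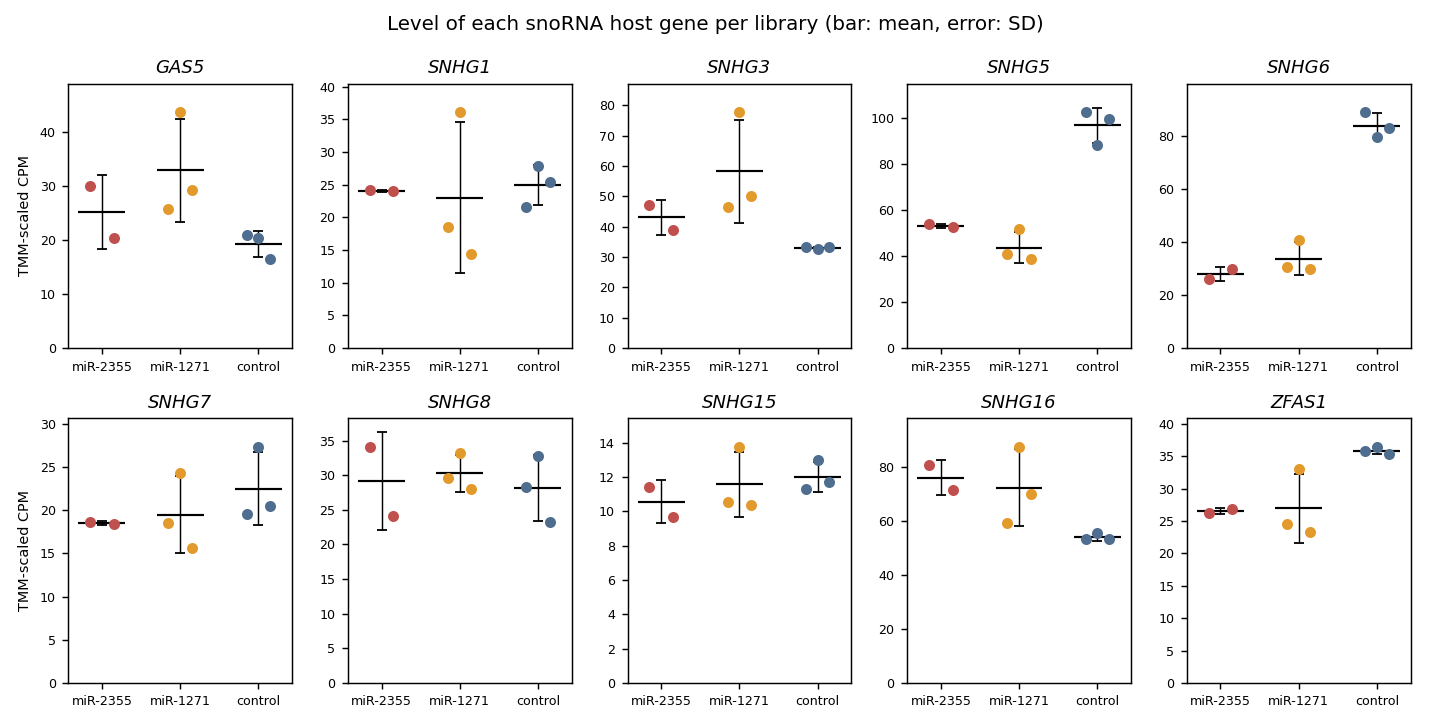
TMM-scaled CPM of each host gene (vertical axes, starting at 0 and scaled per gene) in each library of the miR-2355, miR-1271 and control groups; points are libraries, bars the group means and error bars the SD. SNHG5 and SNHG6 lie below every control library in all 5 microRNA libraries, while SNHG3 and SNHG16 lie above every control library in all 5.

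SNHG6, the host of SNORD87, had the largest fall of the 10 in both pulldowns. It stood at 25.96 and 29.75 CPM in the miR-2355 libraries, at 30.52, 40.88 and 29.79 CPM in the miR-1271 libraries, and at 88.95, 79.39 and 83.07 CPM in the control libraries. Every microRNA library lay far below every control library. Against the control it was 3.02-fold lower with miR-2355 (log2 fold change -1.59 ± 0.15 SE, edgeR adjusted p = 1.12e-06) and 2.49-fold lower with miR-1271 (-1.32 ± 0.13 SE, edgeR adjusted p = 1.33e-06). Ordered from the lowest log2 fold change of 17351 genes, SNHG6 ranked 477 with miR-2355 and 925 with miR-1271. Both calls held in each of the 16 alternatives run.

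SNHG5, the host of SNORD50A and SNORD50B, with a pyrimidine run at its annotated start, fell in both as well. It stood at 53.78 and 52.52 CPM with miR-2355, at 40.97, 51.57 and 38.59 CPM with miR-1271, and at 102.6, 88.06 and 99.62 CPM with the control. All 5 microRNA libraries lay below the lowest control library. The level was 1.83-fold lower with miR-2355 (log2 fold change -0.87 ± 0.14 SE, edgeR adjusted p = 0.000203) and 2.22-fold lower with miR-1271 (-1.15 ± 0.13 SE, edgeR adjusted p = 2.86e-06). Both calls held in each of the 16 alternatives.

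ZFAS1, which lies beside ZNFX1 and hosts the SNORD12 snoRNAs, fell less. It stood at 26.28 and 26.87 CPM with miR-2355, at 24.52, 33.06 and 23.29 CPM with miR-1271, and at 35.77, 36.5 and 35.43 CPM with the control. The control libraries lay close together and above all 5 microRNA libraries, of which miR-1271 replicate 2 came nearest. The level was 1.35-fold lower with miR-2355 (log2 fold change -0.43 ± 0.15 SE, edgeR adjusted p = 0.0407) and 1.33-fold lower with miR-1271 (-0.41 ± 0.14 SE, edgeR adjusted p = 0.0242). The miR-2355 call held in only 5 of 16 alternatives, with edgeR or DESeq2 adjusted p from 0.0242 to 0.232, and in all 16 the log2 fold change was below 0. It was lost with RLE factors (-0.40, edgeR adjusted p = 0.055), upper-quartile factors (-0.35, 0.091), no filter (-0.42, 0.0793) and equal depth (-0.37, 0.158), and in DESeq2 (-0.41, DESeq2 adjusted p = 0.0659). It was also lost without any 1 control library, without either miR-2355 library and without miR-1271 replicate 1 (-0.40 to -0.45). The miR-1271 call held in 12 of 16 and was lost with upper-quartile factors (-0.31, edgeR adjusted p = 0.0786) and without control replicate 3 (-0.43, 0.0604) or miR-1271 replicate 1 (-0.34, 0.11) or 3 (-0.30, 0.14). Without miR-1271 replicate 2 the log2 fold change with miR-1271 was -0.57 (edgeR adjusted p = 0.00382).

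SNHG16, the host of the SNORD1 snoRNAs and first described as a non-coding RNA of neuroblastoma, rose in both pulldowns. It stood at 80.86 and 71.63 CPM with miR-2355, at 59.38, 87.71 and 70.12 CPM with miR-1271, and at 53.35, 55.66 and 53.42 CPM with the control. All 5 microRNA libraries were above the 3 controls, miR-1271 replicate 1 by the least. The level was 1.41-fold higher with miR-2355 (log2 fold change 0.50 ± 0.15 SE, edgeR adjusted p = 0.0174) and 1.34-fold higher with miR-1271 (0.42 ± 0.13 SE, edgeR adjusted p = 0.0193). The first call was lost without control replicate 3 (0.49, edgeR adjusted p = 0.0559) or miR-2355 replicate 1 (0.43, 0.155). The second was lost with library totals alone (0.27, edgeR adjusted p = 0.122), without control replicate 3 (0.41, 0.066) and without miR-1271 replicate 2 (0.27, 0.11).

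SNHG3 carries SNORA73A and SNORA73B, the U17 snoRNAs, which act in cleavage of the ribosomal RNA precursor. It stood at 47.21 and 38.99 CPM with miR-2355, at 46.66, 77.81 and 50.15 CPM with miR-1271, and at 33.18, 32.62 and 33.29 CPM with the control. No microRNA library overlapped the controls, which lay within 1 CPM of each other. With miR-1271 it was 1.76-fold higher (log2 fold change 0.81 ± 0.17 SE, edgeR adjusted p = 0.000964), and this held in each of 16 alternatives. Without miR-1271 replicate 2 the log2 fold change was 0.56 (edgeR adjusted p = 0.00447). With miR-2355 the log2 fold change was 0.38 ± 0.18 SE (edgeR adjusted p = 0.124), which did not pass, but it passed when miR-1271 replicate 2 was left out of the shared estimate of the spread (0.41, edgeR adjusted p = 0.0298) and in a fit of the miR-2355 and control libraries alone (0.41, 0.0433).

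GAS5, named for its accumulation in growth-arrested cells, hosts the most snoRNAs of the 10. It stood at 30.02 and 20.39 CPM with miR-2355, at 25.66, 43.66 and 29.24 CPM with miR-1271, and at 20.86, 20.3 and 16.55 CPM with the control. The miR-1271 libraries were all above the controls, while miR-2355 replicate 2 lay among them. With miR-1271 it was 1.72-fold higher (log2 fold change 0.78 ± 0.19 SE, edgeR adjusted p = 0.0043), in each of 16 alternatives. Without miR-1271 replicate 2 the log2 fold change was 0.54 (edgeR adjusted p = 0.0319). With miR-2355 the log2 fold change was 0.40 ± 0.21 SE (edgeR adjusted p = 0.166), and it passed in 0 of 16 alternatives. Of the miR-2355 libraries, leaving out replicate 1 gave 0.12 and leaving out replicate 2 gave 0.65.

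**Figure D2:**
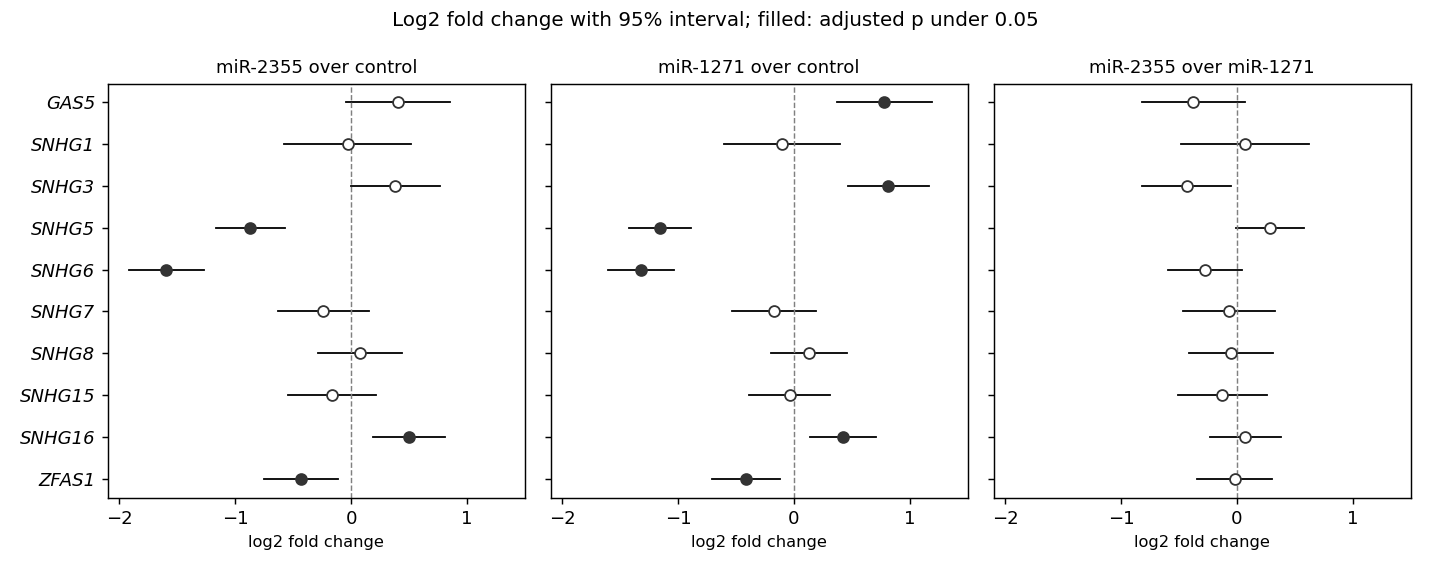
Log2 fold change of each host gene (points) with its approximate 95% interval (lines) for miR-2355 over control, miR-1271 over control and miR-2355 over miR-1271; filled points have an edgeR adjusted p under 0.05 over all 17351 genes. SNHG5, SNHG6 and ZFAS1 are lower and SNHG16 higher in both comparisons with the control, and no point is filled in the comparison of the pulldowns.

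SNHG1, SNHG7, SNHG8 and SNHG15 did not pass against the control in either pulldown. SNHG1, a host of box C/D snoRNAs beside SLC3A2, stood at 24.19 and 23.98 CPM with miR-2355, at 18.52, 36.13 and 14.42 CPM with miR-1271, and at 21.66, 27.83 and 25.36 CPM with the control. Relative to its mean it spread most of the 10 in the miR-1271 group, where replicate 2 lay above and the other libraries below all controls. Its log2 fold change with miR-1271 was -0.10 ± 0.24 SE (edgeR adjusted p = 0.757), and without replicate 2 it was -0.57 and passed (edgeR adjusted p = 0.0158). With miR-2355 it was -0.03 ± 0.26 SE (edgeR adjusted p = 0.946).

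SNHG7, host of the SNORA17 snoRNAs, stood at 18.69 and 18.4 CPM with miR-2355, at 18.52, 24.35 and 15.69 CPM with miR-1271, and at 19.63, 27.38 and 20.51 CPM with the control. Both miR-2355 libraries were below all controls, yet the log2 fold changes of -0.24 (95% interval -0.64 to 0.15) with miR-2355 and -0.17 (-0.53 to 0.19) with miR-1271 did not pass. Without miR-1271 replicate 2 the value with miR-1271 was -0.35 (edgeR adjusted p = 0.133). At its annotated start SNHG7 shares the pyrimidine run and the TATAA letters with SNHG5 and ZFAS1, which were called lower. SNHG8, not called, has the TATAA letters too, and no link of these features with the levels was tested.

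SNHG8, host of SNORA24, stood at 34.13 and 24.18 CPM with miR-2355, at 29.59, 33.16 and 28.05 CPM with miR-1271, and at 28.38, 32.85 and 23.22 CPM with the control. The groups overlapped, with log2 fold changes of 0.08 (95% interval -0.28 to 0.44) with miR-2355 and 0.13 (-0.20 to 0.46) with miR-1271. SNHG15, host of SNORA9, stood at 11.43 and 9.683 CPM with miR-2355, at 10.55, 13.76 and 10.38 CPM with miR-1271, and at 11.3, 13.0 and 11.7 CPM with the control. These groups overlapped too, with log2 fold changes of -0.16 (95% interval -0.55 to 0.22) with miR-2355 and -0.04 (-0.39 to 0.31) with miR-1271.

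By the kind of snoRNA carried, the 3 genes lower in both pulldowns all hosted box C/D snoRNAs. So did SNHG16, which was higher in both, and GAS5, which was higher with miR-1271. Of the 4 hosts of box H/ACA snoRNAs alone, SNHG3 was higher with miR-1271 and the other 3 did not pass in either pulldown. Of the 6 hosts of box C/D snoRNAs, SNHG1 alone passed in neither. These counts are too small for a comparison of the kinds, and none was tested.

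The groups did not overlap for 6 of the 10 genes with miR-2355, 2 above and 4 below the controls, where 24.9% of all tested genes lay wholly above and 27.8% wholly below. With miR-1271, 3 lay wholly above and 3 wholly below, against 23.1% and 26.8% of all genes. Over all genes, groups without overlap were thus about as frequent as among the 10, and the calls given above did not lie far from the background either, so nothing about the family is read from its count of changed genes.

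**Figure D3:**
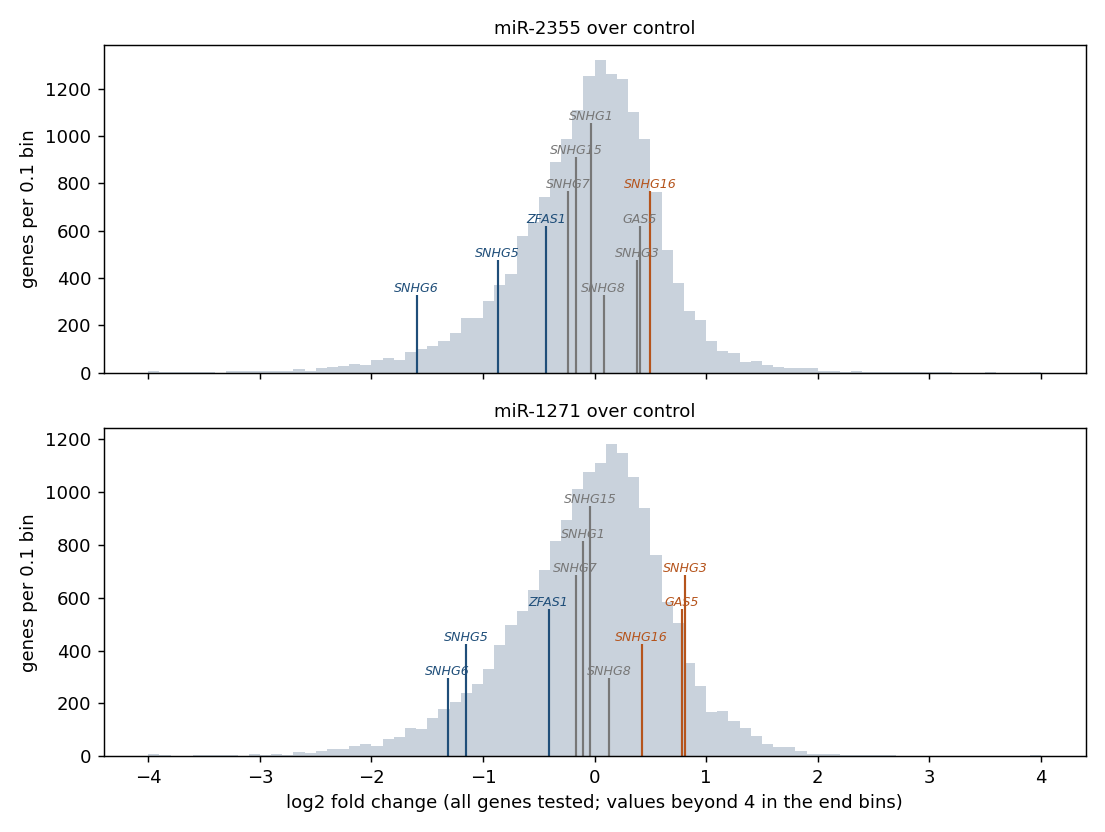
Distribution of log2 fold changes of all 17351 tested genes (grey bars, genes per bin of 0.1) for miR-2355 over control and miR-1271 over control, with the 10 host genes as lines of arbitrary height (blue lower, brown higher, dark grey not called). The host genes run from -1.59 for SNHG6 to 0.50 for SNHG16 with miR-2355 and from -1.32 for SNHG6 to 0.81 for SNHG3 with miR-1271.

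Set against each other, the pulldowns differed in 0 of the 10 host genes (edgeR adjusted p under 0.05), where 3.50% of all tested genes had the higher level with miR-2355 and 2.65% with miR-1271. At an unadjusted p under 0.05 there was 1 such gene, SNHG3, by edgeR, and DESeq2 called 0, with 1 at an unadjusted p under 0.05. SNHG3 had the largest difference, -0.43 ± 0.18 SE in log2 units (miR-2355 over miR-1271, 95% interval -0.81 to -0.05, edgeR adjusted p = 0.165). GAS5 differed by -0.38 (95% interval -0.82 to 0.07, edgeR adjusted p = 0.299). Without miR-1271 replicate 2 these differences were -0.16 for SNHG3 (edgeR adjusted p = 0.585) and -0.11 for GAS5 (0.803), and that of SNHG1 was then the largest of the 10, at 0.56 (0.103). The rise of SNHG3 and GAS5 with miR-1271 is therefore not shown to differ from the smaller values with miR-2355.

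Of the genes that fell, SNHG5 had both miR-2355 libraries above the 3 miR-1271 libraries, a log2 difference of 0.28 (95% interval -0.01 to 0.58, edgeR adjusted p = 0.237). SNHG6 had both miR-2355 libraries below the 3 miR-1271 libraries, narrowly, with a log2 difference of -0.28 (95% interval -0.59 to 0.04, edgeR adjusted p = 0.291). Without miR-1271 replicate 2 the differences were 0.43 for SNHG5 (edgeR adjusted p = 0.109) and -0.11 for SNHG6 (0.734). Pulldowns without overlap were thus found for 1 gene in each direction, while 21.1% of all tested genes lay wholly above and 20.5% wholly below. ZFAS1 and SNHG16 differed by -0.02 (-0.34 to 0.30) and 0.08 (-0.24 to 0.39). The intervals of SNHG1, SNHG7, SNHG8 and SNHG15 all held 0, the widest that of SNHG1, from -0.48 to 0.62.

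Counting each gene as a share of the reads of all 10 removes the scaling between libraries. SNHG5, SNHG6 and ZFAS1, grouped by their calls above, together made up 32.3% ± 3.13 of these reads with miR-2355 (SD, n = 2), 29.8% ± 1.56 with miR-1271 (SD, n = 3) and 52.7% ± 2.98 with the control (SD, n = 3). GAS5, SNHG3 and SNHG16 made up 43.1% ± 2.43 with miR-2355, 46.3% ± 2.70 with miR-1271 and 25.9% ± 0.299 with the control. The other 4 genes held 24.6% ± 0.699, 23.9% ± 1.63 and 21.3% ± 2.70 in the same groups. Since the genes were grouped by their calls on the same reads, these shares are a description, and a gene's share also rises where the other genes fall.

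SNHG6 alone held 7.363% and 9.404% of the family's reads in miR-2355 libraries, 10.01%, 9.248% and 9.619% with miR-1271, and 21.4%, 19.19% and 20.66% with the control. SNHG16 held 22.94% and 22.64% in miR-2355 libraries, 19.48%, 19.84% and 22.64% with miR-1271, and 12.84%, 13.46% and 13.28% with the control. In these shares miR-1271 replicate 2 lay within the range of the other microRNA libraries for both genes, unlike in CPM.

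**Figure D4:**
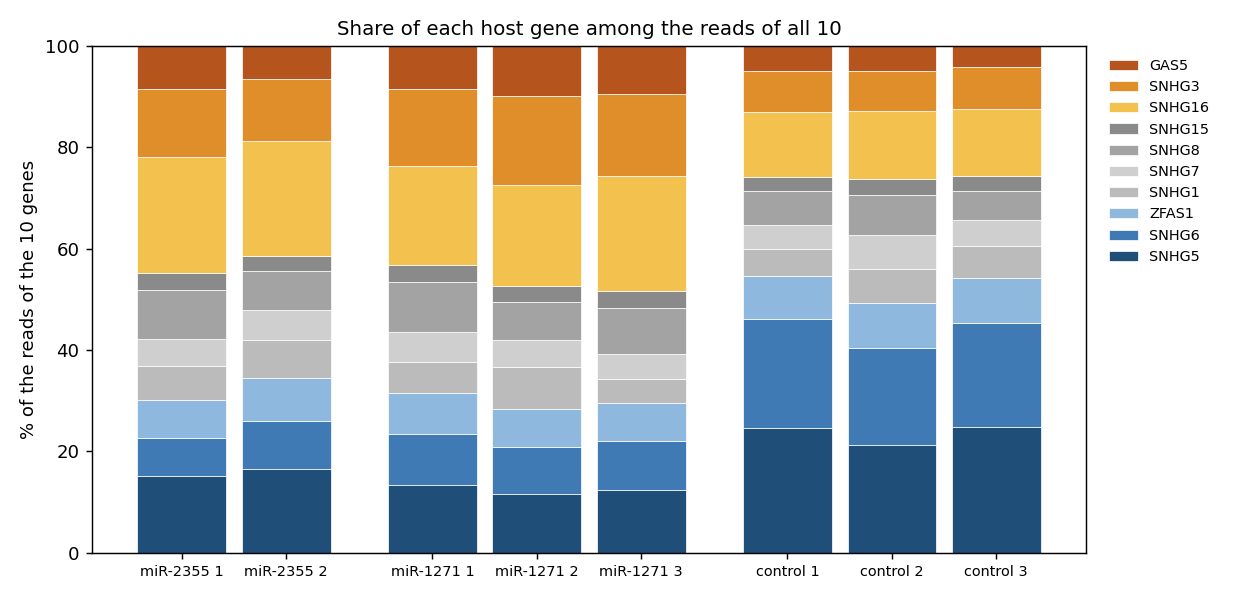
Share of each host gene among the reads of all 10 (vertical axis, percent) in each library, with miR-2355 libraries left, miR-1271 libraries in the middle and control libraries right; blue parts are SNHG5, SNHG6 and ZFAS1, grey parts the 4 genes not called, and yellow to brown parts SNHG16, SNHG3 and GAS5. The blue part takes 28.4% to 34.5% in the microRNA libraries and 49.3% to 54.7% in the controls.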

How the data were processed

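The data were deposited raw counts, reads per Ensembl gene ID in 1 column per library, and columns were matched to libraries by title. Per the submitters' processing notes, BWA and featureCounts were used with the builds hg38 and GRCh38, without versions. TRIzol, spin columns and a Takara SMARTer library kit were used, per the labels' protocols. Which annotation was counted, whether strand was used and what happened to reads with several matches is not given in the sources used here. Since BWA does not splice alignments, host transcripts with short exons may be counted low. Whether this was equal in all libraries was not checked. No unassigned row was present.

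All genes were fitted in edgeR 4.0.16 (R 4.3.3): filterByExpr, TMM factors, a quasi-likelihood fit with a mean per group on all 8 libraries, and glmQLFTest for 3 contrasts, with Benjamini-Hochberg adjustment over 17351 genes. Standard errors are the log2 fold change over the square root of F, and 95% intervals use the t distribution with the fit's degrees of freedom, both approximate. DESeq2 1.42.0, other scalings, no filter, equal depth (4122875 reads each), the compared groups alone, a replicate block and leaving out each library were tried, 16 alternatives per result. Replicates differed by more than sampling noise (chi-square per degree of freedom 6.21 to 21.2). No label states that replicates were separate cultures. The p-values therefore cover only the spread of the libraries at hand, which may be technical.

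All 10 members are named. Members and lists were chosen with earlier results of these data known. The table's IDs were paired with names for the members alone, through the list of IDs that defines the family, since the gene table used here matched none. The lists of other host genes, snoRNAs, snoRNP proteins, decay factors, cell type markers and most similar genes, fixed by symbol, were therefore not run, and the renal epithelial label was not checked against markers. Correlations between members over libraries are not given because the libraries fall into separate groups. Positions and sequences are RefSeq's on GRCh38.p14, matched by symbol: 10 of 10 members had a position and 8 a promoter shown. Whether replicate numbers pair libraries was checked, with the result given beside the alternatives.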

Additional observations from a re-analysis of the deposited data

How the results depend on the processing

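The calls of SNHG5 and SNHG6 in both pulldowns and of GAS5 and SNHG3 with miR-1271 kept their direction and passed in all 16 alternatives. The number of members higher with miR-2355 was 1, but 2 in a fit of the compared groups alone and 0 to 2 on leaving out 1 library: 0 without control replicate 3 or miR-2355 replicate 1, and 2 without miR-1271 replicate 2. The number lower with miR-2355 ran from 2 to 3, and with miR-1271 2 to 3 were higher and 2 to 4 lower. The median log2 fold change of the 10 with miR-1271 ran from -0.26 (without miR-1271 replicate 2) to 0.11 (without miR-1271 replicate 3). The causes were not tested.

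Signs turned only for values that were not called. With upper-quartile factors SNHG1 was at 0.051 with miR-2355 and SNHG15 at 0.061 with miR-1271. With library totals alone SNHG8 was at -0.021 with miR-1271, and the differences between the pulldowns (miR-2355 minus miR-1271) were 0.06 for SNHG7, 0.072 for SNHG8 and 0.11 for ZFAS1. That of ZFAS1 was 0.022 with no filter, and at equal depth it was 0.085 (0.017 for SNHG7). On leaving out 1 library, log2 fold changes against the control ran from -0.13 to 0.034 for SNHG1 and -0.17 to 0.30 for SNHG8 with miR-2355, and with miR-1271 from -0.57 to 0.17 for SNHG1, -0.17 to 0.054 for SNHG15 and -0.003 to 0.23 for SNHG8. Differences between the pulldowns ran from -0.18 to 0.56 for SNHG1, -0.24 to 0.025 for SNHG15, -0.038 to 0.24 for SNHG16, -0.20 to 0.13 for SNHG7, -0.31 to 0.18 for SNHG8 and -0.11 to 0.16 for ZFAS1.

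The replicate numbers did not pair the libraries: deviations from the group means correlated at -0.088 to 0.011 between same-numbered libraries. With the replicate number as a block, 1 member was higher and 3 lower with miR-2355 and 3 higher and 3 lower with miR-1271, as without it, and SNHG8 was at -0.015 with miR-2355.

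Over all genes, counts of calls ran over the alternatives from 760 to 2836 higher and 1569 to 3098 lower with miR-2355 (2127 and 3044 as reported), from 1896 to 4003 and 3130 to 4887 with miR-1271 (3062 and 3910), and from 154 to 1252 and 70 to 902 between the pulldowns (608 and 459). Higher genes made up 41.1% of calls with miR-2355 and 52.0% with upper-quartile factors. With miR-1271 they made up 43.9%, rising to 54.6% under upper-quartile factors and dropping to 28.0% under library totals, where the median gene's log2 fold change was -0.14 and not 0.006. Between the pulldowns they made up 57.0%, and 82.7% with library totals, where that median was 0.12 and not -0.006. Depth limits SNHG15 most, with 57 to 266 reads per library. The shallowest library, control replicate 2, holds 4122875 reads in all.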

Other observations

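Ratios of reads between 2 host genes in the same library do not depend on scaling. Both pairs below were chosen after their values had been seen, so the ratios are a description. The reads of SNHG6 over those of SNHG16 were 0.321 and 0.415 in miR-2355 libraries, 0.514, 0.466 and 0.425 with miR-1271, and 1.67, 1.43 and 1.55 with the control. In this ratio all 5 microRNA libraries lay below all 3 controls. The reads of SNHG5 over those of SNHG3 were 1.14 and 1.35 in miR-2355 libraries, 0.878, 0.663 and 0.769 with miR-1271, and 3.09, 2.70 and 2.99 with the control. In this ratio the miR-1271 libraries lay below the miR-2355 libraries, which lay below the controls, with no overlap between the 3 groups. The difference between the pulldowns in it was not tested.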
